A study of Mus musculus with 6 samples.

Results

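Hedgehog signalling was followed through 10 genes of the pathway in mouse stembryos: the ligand Shh, the receptor Ptch1, the co-receptors Gas1, Boc and Cdon, the ligand-binding inhibitor Hhip, the transducer Smo and the transcription factors Gli1, Gli2 and Gli3. They were chosen by name and make up 10 of the 25595 genes in the count table. Stembryos are aggregates of wild-type mouse embryonic stem (mES) cells that elongate into a trunk-like structure after a pulse of the Wnt agonist Chiron. Single-cell transcripts, counted as unique molecular identifiers (UMIs), came from 2 libraries of whole stembryos at 120 h after aggregation, single libraries of the anterior part and of the posterior part of a further 120 h pool, and 2 libraries of whole stembryos at 96 h. All 6 libraries were of wt genotype, each was made from pooled stembryos, and structures that had not elongated by 120 h had been set aside, so the comparison between times includes that selection.

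In the Hedgehog pathway a secreted ligand binds Ptch1, which otherwise holds the membrane protein Smo inactive, and active Smo changes the processing of the Gli factors from repressors to activators. Gas1, Boc and Cdon bind the ligand together with Ptch1 and promote signalling, whereas Ptch1 and Hhip, both known targets of the pathway, restrain it, and Gli1 is a widely used readout of activity. In the embryonic trunk Shh is made by the notochord, the floor plate and the gut endoderm, and it patterns the neural tube and the ventral somite, which forms the sclerotome.

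The 6 libraries held 2649 to 7887 cells each, 26968 in all, and 24303317 to 117580506 UMIs each. The authors had sorted the cells into 12 fates, named after tissues of the trunk: early and late presomitic mesoderm (PSM), the determination front where segments are set, somite A and somite B on the mesodermal side, NMPs A to C (neuromesodermal progenitors, NMP), spinal cord A and spinal cord B on the neural side, and 1 fate each for endoderm and for pluripotent or primordial germ cells. Fates were unevenly spread. Somite and determination front cells made up 47.4% and 36.4% of the whole libraries at 120 h, against 0.567% and 0.0755% at 96 h, and 99.0% of the anterior part against 15.3% of the posterior part. Replicate 1 of both times shared batch 1 and V3 chemistry, replicate 2 of both times shared batch 4 and V3.1 chemistry, and both parts were in batch 2 with V3 chemistry. Any pair of libraries shared 0 to 11 cell barcodes, and the highest share of the smaller library was 0.228%.

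Depth differed widely between the members. Over all cells there were 61792 UMIs of Gas1, 28248 of Smo, 21265 of Gli3, 9844 of Ptch1, 9671 of Boc, 4944 of Cdon and 4568 of Gli2. In contrast, 247 UMIs were counted for Gli1, 80 for Hhip and 33 for Shh, so these 3 genes can be described by their counts but hardly compared. Levels below are UMIs of a gene per 1000000 UMIs (CPM) of a library or of a fate in it, and a sum of cells enters only with at least 20 cells.

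**Figure D1:**
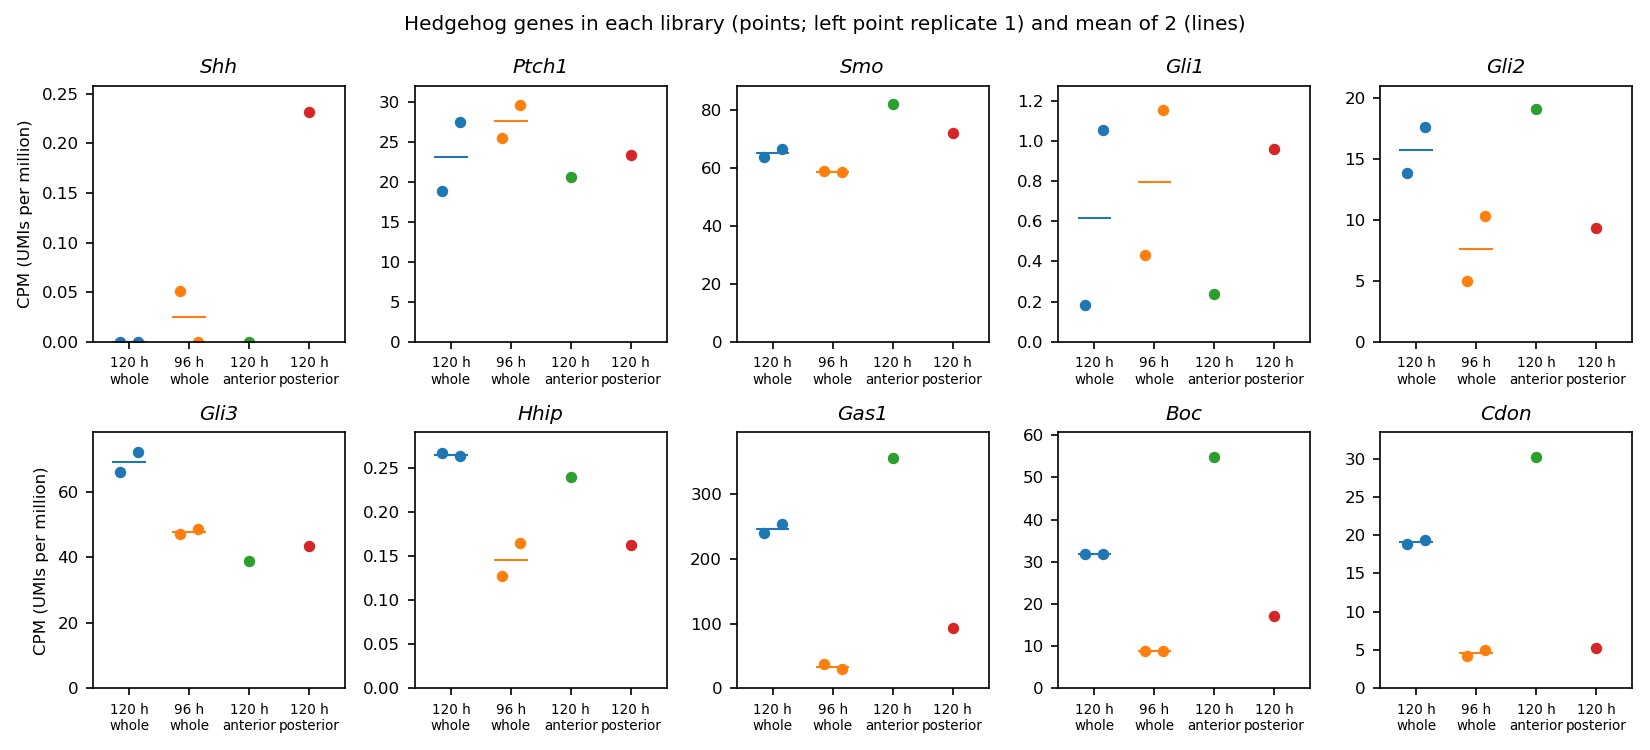
CPM of the 10 Hedgehog genes (y axes, each from 0) in each library: whole stembryos at 120 h and at 96 h (2 points each, replicate 1 on the left, line at the mean) and the anterior and posterior part at 120 h (1 point each). Gas1, Boc and Cdon separate both 120 h whole libraries from both 96 h libraries and the anterior from the posterior part, whereas Smo differs little and Shh is at 0 in both 120 h whole libraries.

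Shh, the ligand, was nearly confined to a small endoderm population of the posterior part. Of its 33 UMIs, 27 came from 24 of the 183 endoderm cells of that part, a share of 13.1% (exact Clopper-Pearson 95% interval 8.59 to 18.9%), with at most 2 UMIs in a cell. None of the 7704 other cells of the same library held one, which allows a share of up to 0.0389%. Median depth was alike, at 12841 UMIs in endoderm cells and 13660.5 in the others, and with each cell thinned to 5000 UMIs 8 of 183 endoderm cells (4.37%) against 0 of 7704 kept a Shh UMI. The other 6 UMIs were single ones in 6 cells of the 96 h replicate 1 library, 3 in NMPs A and 3 in early PSM, or 0.108% and 0.150% of those cells. The whole libraries at 120 h had 0 Shh UMIs in 7550 cells, which allows a share of up to 0.0397%. They held only 1 and 7 endoderm cells. Shh lies on chromosome 5 (mm10, 28456815 to 28467256, minus strand). These intervals, and those given below for single libraries, cover counting error only.

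The endoderm label was checked against its markers, since Shh is also made by the notochord. Of the 10 genes with the largest fold over the other fates in endoderm, 4 were on the endoderm list (Sox17, Krt18, Krt8 and Foxa2) and 1, Foxa2, was also on the notochord and floor plate list. In the 24 cells with a Shh UMI, Sox17, a transcription factor of definitive endoderm, had 276 CPM, against 130 CPM in the 159 endoderm cells without one and 0.290 CPM in the other fates. Foxa2, a factor of endoderm, notochord and floor plate, had 105 CPM in the cells with Shh, 49.6 CPM in those without and 0.0966 CPM in the other fates. Chrd, a BMP antagonist of the notochord, had 25.1, 5.76 and 1.14 CPM in the same order, from 10, 13 and 130 UMIs. T, a factor of notochord and tail bud, had 110, 109 and 51.3 CPM, and Noto, a notochord factor, had 0 UMIs in all 3. These cells were picked by a Shh UMI and had a median of 14023 UMIs, against 12649 for endoderm cells without one, so their values are a description. Ihh, the related ligand, followed the same fate: 25 of its 63 UMIs fell in the 205 endoderm cells of all libraries. Dhh, the third ligand, had 19 UMIs, none of them in endoderm.

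**Figure D2:**
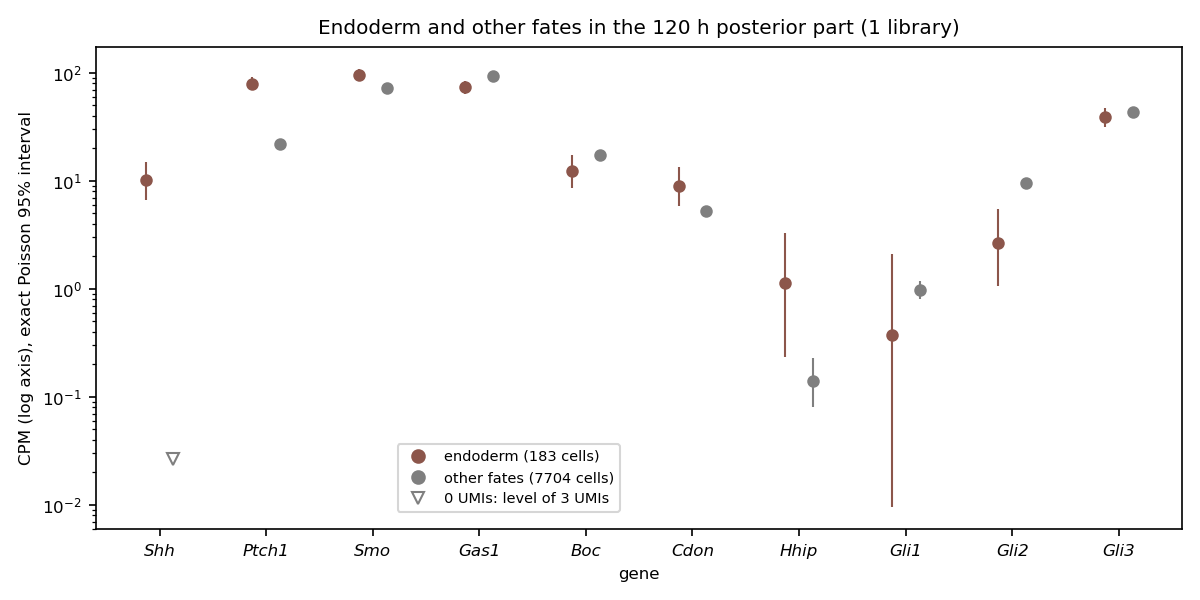
CPM on a log axis of each Hedgehog gene in endoderm cells (183) and in the other fates (7704 cells) of the 120 h posterior part, 1 library, with exact Poisson 95% intervals (counting error only). An open triangle marks the level that 3 UMIs would give where none was counted. Shh and Ptch1 stand higher in endoderm, at 10.2 and 79.5 CPM, and Gli2 lower, at 2.64 CPM.

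The same endoderm cells differed from their neighbours in other members. Ptch1, the receptor and a target of the pathway, had 79.5 CPM in endoderm and 22.0 CPM in the other fates of the posterior part, a ratio of 3.60 (95% interval 3.12 to 4.15, from 211 and 2511 UMIs). Gli2, the main activator among the Gli factors, had 2.64 CPM in endoderm and 9.51 CPM in the other fates, a ratio of 0.277 (0.111 to 0.573), from 7 and 1083 UMIs. Gli1 was represented by 1 UMI in endoderm and 111 elsewhere, and its ratio of 0.386 has an interval of 0.00970 to 2.20, so no difference was detectable at this depth. Hhip had 3 UMIs in endoderm and 16 elsewhere (ratio 8.04, interval 1.5 to 28.1). Among the co-receptors, Cdon was at 9.04 and 5.22 CPM (ratio 1.73, interval 1.10 to 2.60), Gas1 was at 73.4 and 93.7 CPM (0.783, 0.676 to 0.903) and Boc was at 12.4 and 17.2 CPM (0.722, 0.496 to 1.02). Smo had 96.0 and 71.6 CPM (ratio 1.34), and Gli3 38.8 and 43.6 CPM (ratio 0.889, interval 0.724 to 1.08). Within endoderm, Ptch1 had 113 CPM in the cells with a Shh UMI (interval 82.4 to 151) and 73.5 CPM in those without (62.8 to 85.6), and these intervals overlap. With 1 library there is no replicate check of any of these differences.

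Gas1 lies on chromosome 13 (mm10, 60174405 to 60177365, minus strand), Boc on chromosome 16 (44485049 to 44558897, minus strand) and Cdon on chromosome 9 (35421128 to 35507652, plus strand). Gli2 lies on chromosome 1 (118834132 to 119053619, minus strand). The RefSeq table of promoters (GRCm38.p6, the same build) matched 7 of the 10 members, all but Shh, Gli1 and Boc. The 250 bases upstream of the RefSeq start are shown for Gas1 and Gli2, which are among the members that differed between late PSM, determination front and somite A in the results that follow. They are given 5′ to 3′ on the minus strand with CpG dinucleotides in capitals, at chr13:60177536-60177785 for Gas1 and chr1:119053620-119053869 for Gli2.
Gas1: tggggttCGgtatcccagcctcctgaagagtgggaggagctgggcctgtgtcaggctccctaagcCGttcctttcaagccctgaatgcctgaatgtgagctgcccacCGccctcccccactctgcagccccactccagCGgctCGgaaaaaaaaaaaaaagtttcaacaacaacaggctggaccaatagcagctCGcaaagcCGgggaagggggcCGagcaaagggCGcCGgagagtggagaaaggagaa
Gli2: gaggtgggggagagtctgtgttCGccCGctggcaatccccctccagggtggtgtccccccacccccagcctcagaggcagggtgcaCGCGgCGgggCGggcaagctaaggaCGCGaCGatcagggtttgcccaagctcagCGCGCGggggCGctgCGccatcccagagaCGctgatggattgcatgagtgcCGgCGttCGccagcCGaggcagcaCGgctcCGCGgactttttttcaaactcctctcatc
The Gas1 window held 10 CpG and 58.8% G and C, the Gli2 window 22 CpG and 67.2%, beside a median of 6 CpG over all 32851 windows. Cdon and Ptch1 also differed between late PSM, determination front and somite A. Their windows, which are not printed, held 1 and 41 CpG. The Cdon window (chr9:35451826-35452075) and the Ptch1 window (chr13:63565736-63565985) lie inside the annotated gene, not upstream of its outermost start. Both strands were searched for GACCACCCA, the consensus bound by Gli factors, and for its core CCACCC, which the consensus contains. GACCACCCA was in 0 of the 7 members' windows and in 0.225% of all windows. CCACCC was in 4 of 7, Gli2 among them but not Gas1, and in 28.1% of all windows.

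The co-receptor Gas1, a GPI-anchored surface protein, was higher at 120 h in whole stembryos. After scaling of the libraries with TMM factors, as for all CPM of this paragraph, its CPM were 244 and 235 at 120 h, against 41.2 and 28.5 at 96 h. The log2 change was 2.78 ± 0.22 (SE) with an adjusted p of 0.0230 in the quasi-likelihood test of edgeR over 18114 genes. Boc, an immunoglobulin-domain co-receptor, had 32.4 and 29.5 CPM at 120 h, against 9.56 and 8.56 CPM at 96 h, and rose by 1.77 ± 0.14 (adjusted p = 0.0230, edgeR). Cdon, its close relative, had 19.2 and 18.0 CPM at 120 h, against 4.65 and 4.82 CPM at 96 h, and rose by 1.98 ± 0.15 (adjusted p = 0.0223, edgeR). Values of the 2 times did not overlap for any of the 3. These were the 3 members called among 9 tested, against 153 of all 18114 genes, or 0.845% (0.58% of genes higher at 120 h). Without the 120 h replicate 1 library the call for Cdon was narrowly lost (adjusted p = 0.0501, edgeR). With the replicate number as a block, 5 members were called, against a background of 17.0% of genes.

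Changes in whole libraries follow both the number of cells of each fate and the level in a cell, and these cannot be told apart from the sums alone. When somite and determination front cells were left out, an alternative chosen after seeing the data, the log2 change was 2.10 ± 0.24 for Gas1, 1.38 ± 0.16 for Boc and 0.97 ± 0.20 for Cdon. Without the block no gene passed edgeR's threshold in that fit (2065 genes and 4 members at an unadjusted p under 0.05), and adjusted p was 0.0834, 0.0834 and 0.175 for these 3. With the block, adjusted p was 0.0097, 0.0080 and 0.0246 (edgeR), and Gli3 was called too, so 4 of 8 members passed against a background of 8.43%.

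Within presomitic mesoderm Gas1 also rose. Its TMM-scaled CPM were 124 and 113 at 120 h, against 54.6 and 44.7 at 96 h, a log2 change of 1.25 ± 0.17 (adjusted p = 0.0442, edgeR over 12021 genes). It was the 1 member called of 7 tested, against a background of 0.433% of genes (0.299% higher at 120 h). The call was lost without the 120 h replicate 1 library (1.17, adjusted p = 0.194). The PSM class was mostly late PSM at 120 h (427 of 433 and 110 of 140 cells) and mostly early PSM at 96 h (2006 of 2055 and 601 of 606 cells). The single late PSM sum at 96 h, 49 cells of replicate 1, had 106 CPM of Gas1 (interval 86.4 to 129), beside 122 and 131 CPM in late PSM of the whole libraries at 120 h. In early PSM Gas1 had 95.7 CPM in whole replicate 2 (28 UMIs) and 78.6 CPM in the posterior part (60 UMIs) at 120 h. At 96 h it had 45.1 and 48.8 CPM in that fate. Cdon had 10.9 and 6.99 TMM-scaled CPM in PSM at 120 h, against 3.97 and 4.92 CPM at 96 h. Its change of 1.13 ± 0.33 did not pass (adjusted p = 0.272, edgeR), but it did with the block (1.21, adjusted p = 0.0420), where 2 members were called against a background of 6.89%. Boc had a log2 change of 0.59 ± 0.24 (adjusted p = 0.468, edgeR).

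In neuromesodermal progenitors no member was called by edgeR without the block (0 of 8, with 4 at an unadjusted p under 0.05, and 2 by DESeq2 against its background of 2.86%), and only 1 of 15584 genes was, or 0.00642%. Gas1 nevertheless had 88.3 and 96.9 TMM-scaled CPM at 120 h, against 30.2 and 25.8 CPM at 96 h, without overlap (log2 change 1.72 ± 0.15, adjusted p = 0.0669, edgeR). On the same scale Boc had 19.9 and 19.3 CPM at 120 h, against 10.3 and 9.27 CPM at 96 h (1.00 ± 0.15, adjusted p = 0.124, edgeR), and Gli3 had 77.1 and 82.1 CPM, against 56.4 and 48.4 CPM (0.60 ± 0.14, adjusted p = 0.228, edgeR). Gas1 was also called when either 96 h library was left out. With the block these 3 members were called, with adjusted p of 0.0017, 0.0092 and 0.0250 (edgeR), against a background of 7.2%. The class also changed its make-up, since NMPs C held 1581 of 1594 and 651 of 695 cells at 120 h, whereas NMPs A and B held nearly all at 96 h. None of the 10 leading genes of NMPs B and NMPs C was on the NMP marker list. In NMPs A, present at both times, Gas1 had 45.8 CPM in whole replicate 2 (13 UMIs, interval 24.4 to 78.3) and 41.2 CPM in the posterior part at 120 h, beside 27.8 and 24.8 CPM at 96 h. No member was called for a difference between PSM and NMP cells in the change over time, in the interaction test of edgeR (0 of 8 called, 3 at an unadjusted p under 0.05, background 1.56%). The closest were Gas1 (PSM minus NMP -0.46, adjusted p = 0.0543) and Gli3 (-0.54, adjusted p = 0.0530).

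**Figure D3:**
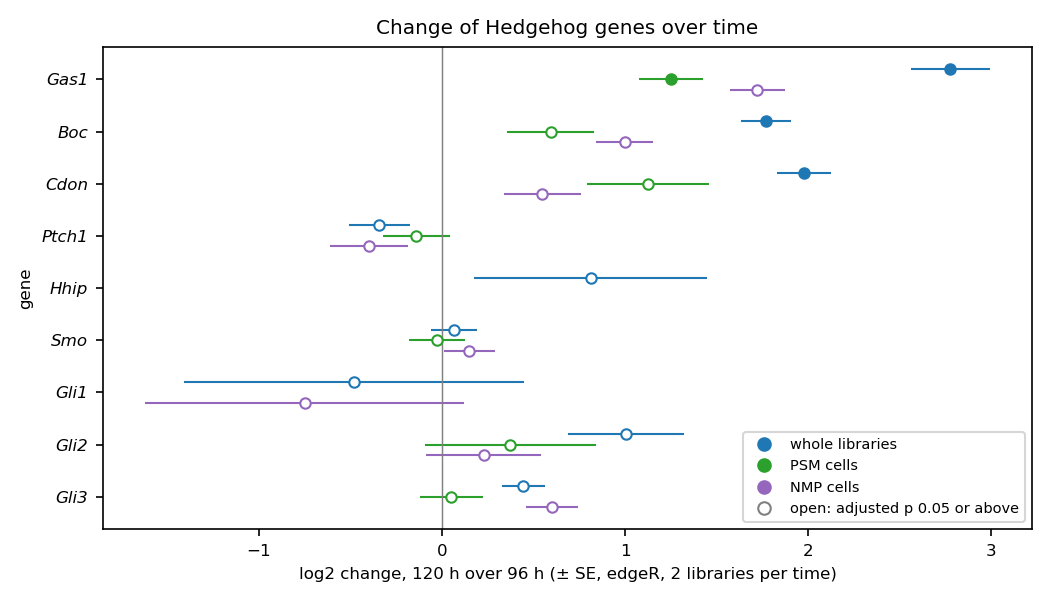
Log2 change at 120 h over 96 h with its SE (x axis) for the members tested in whole libraries, in PSM cells and in NMP cells, from edgeR without a block, 2 libraries per time. Filled points passed an adjusted p of 0.05: Gas1, Boc and Cdon in whole libraries and Gas1 in PSM cells, while Smo lies near 0 in all 3.

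At 120 h the co-receptors were graded along the fates of the mesoderm. The 7 fates with at least 20 cells in every pool were compared over 3 pools (whole replicate 1, whole replicate 2 and both dissected parts summed) in 1 fit with the pool as a block. Since the authors built the fates from the same transcripts, its p-values are too small and serve to order the sizes. Gas1 had 488, 511 and 389 CPM in somite B, 404, 410 and 351 CPM in somite A, 218, 263 and 163 CPM in the determination front, and 122, 131 and 92.4 CPM in late PSM. Each step held in all 3 pools, and the ranges of determination front and late PSM did not overlap, whereas those of somite B and somite A did. Means over the pools were 463 ± 65.1 CPM in somite B, 388 ± 32.5 CPM in somite A, 215 ± 50.1 CPM in the determination front and 115 ± 20.2 CPM in late PSM (SD, n = 3). In the neural fates Gas1 was high in spinal cord B (298 ± 94.7 CPM), with 96.6 ± 31.9 CPM in spinal cord A and 78.7 ± 32.5 CPM in NMPs C.

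Boc and Cdon shared the high level in somites and parted elsewhere. Boc had 57.8 ± 7.0 CPM in somite B, 48.6 ± 2.4 CPM in somite A and 38.5 ± 9.2 CPM in spinal cord B, and the ranges of these 3 fates did not overlap one another or that of spinal cord A. The other 4 of these 7 fates lay between 12.5 CPM in late PSM and 21.5 CPM in spinal cord A, and neighbours among them overlapped. Cdon had 44.5 ± 6.3 CPM in somite B, 31.3 ± 5.9 CPM in somite A and 17.5 ± 6.0 CPM in the determination front, again without overlap of neighbours. Spinal cord B followed with 13.2 ± 5.8 CPM, overlapping the determination front, and late PSM, NMPs C and spinal cord A had 7.98, 6.39 and 5.33 CPM with overlapping ranges.

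**Figure D4:**
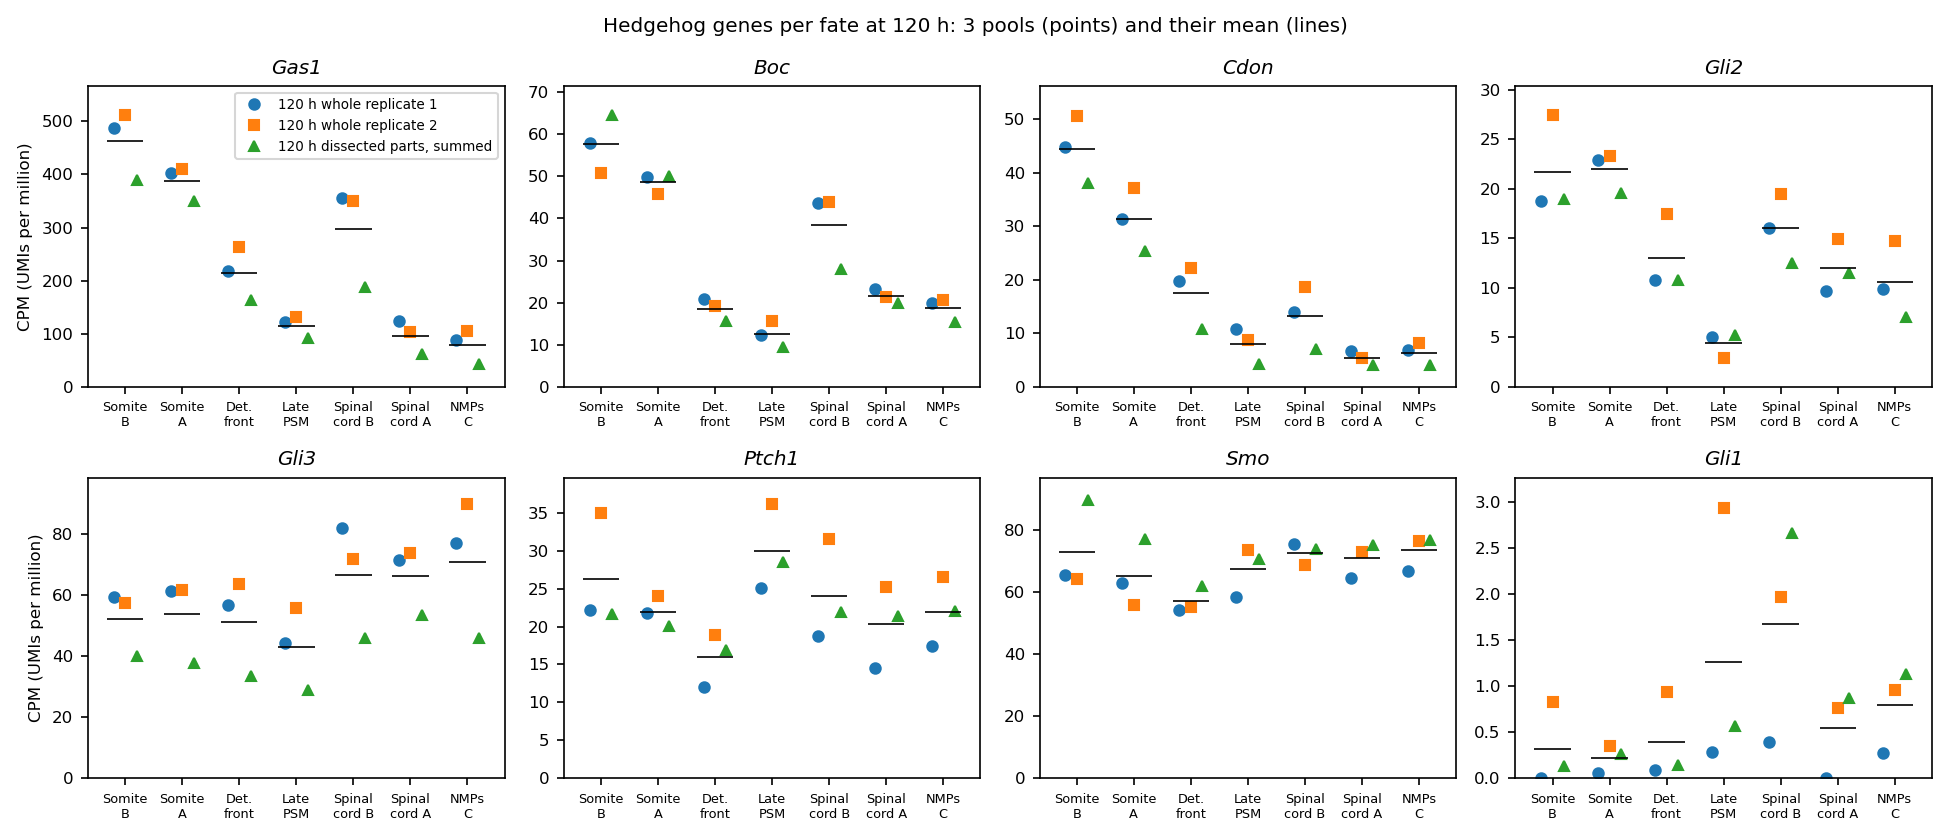
CPM of 8 Hedgehog genes (y axes, each from 0) in the 7 fates with at least 20 cells in each 120 h pool. Points are the 3 pools and lines their mean. The Gas1, Boc and Cdon lines fall from somite B to late PSM, and Gli2 is lowest in late PSM at 4.39 CPM. The dissected pool is the lowest point in every fate for Gli3, Gas1 and Cdon.

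In the somite A over determination front contrast, 5 of 8 members were called, all of them higher, against a background of 29.1% of 14366 genes (14.4% higher in somite A). Log2 differences were 1.43 ± 0.13 for Boc, 0.92 ± 0.14 for Cdon, 0.90 ± 0.13 for Gas1, 0.85 ± 0.14 for Gli2 and 0.47 ± 0.12 for Ptch1 (adjusted p from 2.35e-08 to 0.0065, edgeR). The difference for Ptch1 was 0.24 without whole replicate 1 (adjusted p = 0.211, edgeR). In the determination front over late PSM contrast, 6 of 8 members were called against a background of 14.9% (7.36% higher and 7.58% lower in the determination front). Gli2 was higher by 1.19 ± 0.18, Cdon by 1.16 ± 0.19, Gas1 by 0.91 ± 0.14, Boc by 0.75 ± 0.16 and Gli3 by 0.31 ± 0.09, while Ptch1 was lower (-0.84 ± 0.13), with adjusted p from 5.01e-05 to 0.0230 (edgeR). Ptch1 was thus the 1 called member with the opposite sign at this step. The small difference in Gli3 was lost without whole replicate 1 (0.26, adjusted p = 0.293) and without the dissected pool (0.36, adjusted p = 0.0519, edgeR).

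Late PSM differed from NMPs C in 5 of 8 members, against a background of 15.5% (7.65% higher and 7.8% lower in late PSM). Gas1 (0.67 ± 0.15) and Ptch1 (0.49 ± 0.12) were higher in late PSM, whereas Gli2 (-0.82 ± 0.18), Gli3 (-0.72 ± 0.09) and Boc (-0.68 ± 0.16) were lower, with adjusted p from 1.67e-06 to 0.0064 (edgeR). Without whole replicate 2 Ptch1 just missed the threshold (adjusted p = 0.0546, edgeR). Along the neural branch, spinal cord A over NMPs C, no member was called by edgeR or DESeq2 (0 of 8, with 3 at an unadjusted p under 0.05 in edgeR, background 1.62%). None of the 10 leading genes of spinal cord A was on the spinal cord marker list. The members with the smallest p differed by 0.39 ± 0.15 for Gas1 (adjusted p = 0.170) and 0.39 ± 0.15 for Gli2 (adjusted p = 0.197, edgeR). Without the dissected pool Gas1 was called (adjusted p = 0.0298, edgeR). Without the pool block 3 members were called for the determination front (Boc, Gli2 and Ptch1, background 4.48%), 2 for somite A (Boc and Gli2, background 5.18%) and 1 for late PSM (Gli2, background 4.94%).

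The anterior part, nearly all somite and determination front, had more of the co-receptors than the posterior part. Gas1 had 356 CPM in the anterior and 93.3 CPM in the posterior part, a ratio of 3.82 (interval 3.73 to 3.91). Boc had 54.9 and 17.1 CPM (ratio 3.21, 3.03 to 3.40) and Cdon 30.2 and 5.30 CPM (ratio 5.70, 5.19 to 6.26). Since the parts differed in their fates, the ratios were also taken within the determination front, with 268 anterior and 1140 posterior cells. There Gas1 had 224 and 147 CPM (ratio 1.53, 1.42 to 1.64), Boc 28.6 and 12.0 CPM (2.38, 1.89 to 2.99) and Cdon 16.4 and 9.19 CPM (1.79, 1.33 to 2.37). Each of the 3 was higher in the anterior part also within this fate. Within somite A, with 68 posterior cells, the Gas1 ratio was 1.12 (0.994 to 1.27). Boc had 1.96 there (1.29 to 3.13) and Cdon 3.13 (1.51 to 7.81). Within spinal cord A, with 21 anterior cells, ratios were 4.50 for Gas1 (3.21 to 6.14) and 4.87 for Boc (2.65 to 8.21). Cdon had 1 anterior UMI in that fate (1.72, 0.0433 to 9.70). With 1 library per part, these intervals say nothing of the spread between stembryo pools.

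Ptch1 and Hhip, the inhibitors of the pathway, showed no call over time. Ptch1 had 19.3 and 25.5 TMM-scaled CPM at 120 h, against 27.9 and 28.7 CPM at 96 h (log2 change -0.34 ± 0.17, adjusted p = 0.440, edgeR). Over the 7 fates measured in all 3 pools at 120 h, its means lay between 15.9 CPM in the determination front and 29.9 CPM in late PSM, and neighbours in that order overlapped throughout. Of the fates with fewer sums, NMPs A had a mean of 31.1 CPM (n = 2), and endoderm had the 79.5 CPM in the posterior part given above. Ptch1 lies on chromosome 13 (63508328 to 63573598, minus strand). Hhip had at most 0.473 CPM on average in any of the 7 fates. In whole libraries it had 0.272 and 0.245 TMM-scaled CPM at 120 h, against 0.139 and 0.159 CPM at 96 h (0.81 ± 0.64, adjusted p = 0.654, edgeR).

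Smo, the transducer, varied little between times and between most fates. Its TMM-scaled CPM were 65.0 and 61.9 at 120 h, against 64.4 and 56.7 at 96 h (log2 change 0.07 ± 0.13, adjusted p = 0.897, edgeR), and values of the 2 times overlapped. On CPM without TMM factors they did not, with 63.8 and 66.6 CPM at 120 h, against 58.9 and 58.6 CPM at 96 h (log2 change 0.15). Over the 7 fates at 120 h its means lay between 57.0 CPM in the determination front and 73.3 CPM in NMPs C, with every neighbouring pair overlapping. It was called in none of the 4 fate contrasts, except for somite A over determination front when whole replicate 2 was left out (0.27, adjusted p = 0.0360, edgeR). In pluripotent cells its level was lower, with 6.57 CPM at 120 h and 23.1 CPM at 96 h, each in 1 sum of few UMIs.

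Among the transcription factors, Gli2 had 14.1 and 16.4 TMM-scaled CPM at 120 h, against 5.43 and 9.95 CPM at 96 h. Replicate 2 was the higher at both times. The log2 change of 1.00 ± 0.32 did not pass (adjusted p = 0.239, edgeR), but it did with the replicate block (1.07 ± 0.17, adjusted p = 0.0058) and without 96 h replicate 2 (1.48, adjusted p = 0.0403). At 120 h Gli2 was highest in the somites, at 21.9 ± 2.1 CPM in somite A and 21.7 ± 5.0 CPM in somite B, with overlapping ranges. Of the 7 fates measured in all 3 pools it was lowest in late PSM, at 4.39 ± 1.3 CPM, apart from the next fate, NMPs C, at 10.6 ± 3.9 CPM (SD, n = 3 pools). Sums of few Gli2 UMIs were lower still, with 1.31 CPM in early PSM (2 UMIs), 2.69 CPM in NMPs A (3 UMIs) and the 2.64 CPM in endoderm. The anterior part had 19.1 CPM and the posterior part 9.35 CPM (ratio 2.04, 1.87 to 2.22), and within the determination front the ratio was 1.64 (1.22 to 2.18).

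Gli3, known mainly as the repressor of the family, had 67.3 and 67.0 TMM-scaled CPM at 120 h, against 51.6 and 47.1 CPM at 96 h, without overlap (0.44 ± 0.12, adjusted p = 0.174, edgeR). With the block it was called (adjusted p = 0.0110). Over the 7 fates measured in all 3 pools at 120 h its means lay between 43.0 CPM in late PSM and 70.8 CPM in NMPs C, with neighbours overlapping. It had 38.8 CPM in endoderm, and 9.85 CPM in pluripotent cells from 6 UMIs. The dissected pool was the lowest of the 3 in each of the 7 fates, as it also was for Gas1 and for Cdon. Without TMM factors the anterior and posterior part had 38.8 and 43.5 CPM of Gli3, against 66.1 and 72.1 CPM in the whole libraries at 120 h. The parts also form a batch of their own, so dissection and batch cannot be told apart.

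Gli1 remained scarce. It had 0.185 and 0.978 TMM-scaled CPM at 120 h, against 0.474 and 1.11 CPM at 96 h, where the higher value at each time is that of replicate 2, with V3.1 chemistry (log2 change -0.48 ± 0.93, adjusted p = 0.898, edgeR). Its mean stayed at or below 1.68 CPM in each of the 7 fates. Spinal cord B had this highest mean, with 0.391, 1.97 and 2.67 CPM in the 3 pools. The posterior part had 0.961 CPM and the anterior part 0.240 CPM, an anterior over posterior ratio of 0.250 (0.129 to 0.445). The parts differed in their fates, and counts within a fate were too few to compare. The determination front had 0 anterior and 3 posterior UMIs (interval of the ratio 0 to 8.94), and somite A had 7 and 0.

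Beyond the members, 35 other genes of the pathway were listed, of which 33 were tested in whole libraries. None was called over time by edgeR, with 5 at an unadjusted p under 0.05, and DESeq2 called 2, Scube2 and Scube3, a share close to the 6.38% of all genes that it called. Their median log2 change was 0.16, beside 0.02 over all 18114 genes. With the block 6 were higher and 0 lower, against a background of 17.0% of genes called and 8.89% higher: Scube2 and Scube3, secreted proteins that help release the ligand, Gnas, Prkaca and Prkacb, which act in the protein kinase A branch that restrains Gli activity, and the kinase gene Gsk3b. Scube2, singled out after its values were seen, was uneven between fates, with 41.5 ± 9.0 CPM in spinal cord B (SD, n = 3), where it was among the 10 leading genes, and at most 4.61 CPM on average in the other 6 fates.

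Of 24 genes known to respond to Hedgehog signalling in the trunk, 22 were tested and 1 was called by edgeR, higher at 120 h. The background was 0.845% of genes (0.58% higher at 120 h), and 7 of the 22 had an unadjusted p under 0.05 (edgeR). The median log2 change of the 22 was -0.05, beside the 0.02 over all genes. The called gene was Pax1, a factor of the sclerotome, with 903 and 236 UMIs at 120 h and none in either 96 h library (adjusted p = 0.0213, edgeR). Against a limit of 3 UMIs over both 96 h libraries, it was at least 494-fold higher. At 120 h Pax1 had 61.0 ± 36.7 CPM in somite B, 32.2 ± 7.5 CPM in somite A and at most 0.892 CPM in the other 5 of the 7 fates (SD, n = 3). DESeq2 called 4 of the 22, all higher, against a background of 6.38%. Among them were Pax1, Pax9, a further factor of the sclerotome, and Foxc2. With the block 6 were called, all higher, against a background of 17.0% of genes (8.89% higher). They included Pax1, Pax9 and Foxc2, together with Olig2, a factor of ventral neural progenitors, and Foxl1. Pax1 and Foxc2 are also on the somite marker list, and somite and determination front cells took the larger share at 120 h given above, whose part in these changes was not tested.

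The genes whose pattern was most like that of each member were taken over 41 sums of a fate in a library, as Pearson's r of log2(CPM + 1) among 11264 genes, and the sums share libraries and depth. For Gas1 they were Nr2f2 (0.93), Meis1 (0.93) and Nr2f1 (0.91), for Boc Foxd2os (0.88), Foxp2 (0.87) and G630016G05Rik (0.87), and for Cdon Pax3 (0.80), Mest (0.78) and Galnt16 (0.78). Ptch1 was nearest to Krt8 (0.68), Sox17 (0.66) and Actn1 (0.62), the first 2 of them endoderm markers. Only 1 of the 41 sums was of endoderm, and its weight in these Ptch1 values was not tested. Smo was nearest to Ctbp1 (0.87), Gli3 to Ccdc50 and Msi1 (0.86 each) and Gli2 to Maf1 (0.79). Among the members themselves, r was 0.83 for Gas1 and Boc, 0.74 for Gli2 and Boc, 0.69 for Boc and Cdon, 0.61 for Gas1 and Cdon, 0.59 each for Gli2 with Gas1, Gli2 with Cdon and Smo with Gli3, and 0.57 for Shh and Ptch1. For Shh every such value rests on the single endoderm sum. No member was among the 10 leading genes of any fate.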

How the data were processed

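UMI counts per gene and cell had been deposited by the authors in 1 table of 25595 genes and 26968 cells, with an annotation giving each cell's fate, batch and mitochondrial percent. Per the labels' processing notes, reads were aligned to mm10 with Cell Ranger 6.0 and cells were handled with Seurat 4.0.2. The study's methods state that cells with extreme UMI totals or mitochondrial share were removed, the upper limit serving against doublets. The deposited percent of mitochondrial counts reached 7.98% and was not used further. Libraries were grouped by title. All values were whole numbers, and cells had 0.302 to 2.48 times their library's mean UMI count.

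Counts were summed per library, class or fate, and tested with edgeR 4.0.16 (R 4.3.3; quasi-likelihood test, TMM factors, filterByExpr, Benjamini-Hochberg adjustment over all genes tested, called under 0.05). DESeq2 1.42.0 was an alternative. CPM and intervals (exact Poisson; for ratios and shares exact binomial, 95%) were computed in Python 3.11.15 with SciPy 1.17.1. The whole-library fit over time and the somite A over determination front contrast were also run on simulated counts without a batch effect. The other fits were not. Shares of cells with a UMI were also taken after thinning to 5000 UMIs.

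Among the whole libraries, equal replicate numbers mark a shared batch in the annotation, so these libraries are paired across times. Deviations from the group means correlated with r = 0.655 over 18114 genes (0.452 in PSM and 0.576 in NMP cells). The labels do not say whether replicates came from separate cultures, so p-values measure the spread between libraries. In the fits over time without the block, that spread includes the difference in batch and chemistry between the replicates. Named genes were the 10 members, called genes of the 2 further lists (up to 6 each, by smallest p), marker genes in cells with a Shh UMI, and the 3 genes most like each member reaching 10 CPM in a fate, among genes reaching 10 CPM in a sum. The members and lists were chosen with earlier results of these data known. Some genes of the lists are not reported here by name.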

Additional observations from a re-analysis of the deposited data

How the results depend on the processing

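Of 321 comparisons of a named gene under another setting, 281 kept direction and side of the threshold, 21 lost the call, 16 gained it and 3 changed sign, all 3 without a call: Smo ranged between -0.028 (without 96 h replicate 2) and 0.15 without 1 library, and Gli1 between -2.03 and 0.33, being above 0 without 120 h replicate 1 and without 96 h replicate 2 (0.19). Members called in whole libraries numbered 3, but 5 with the replicate block and 0 without somite and determination front cells; leaving out 1 library gave 2 to 4. In PSM cells 1 became 2 with the block and 0 to 1 without 1 library. In NMP cells 0 became 3 with the block, 2 with DESeq2, 3 with no filter and 0 to 1 without 1 library. For spinal cord A over NMPs C, 0 became 0 to 1 without 1 pool. Without the pool block, 1 was left for late PSM over NMPs C, 3 for determination front over late PSM and 2 for somite A over determination front. The cause of these shifts was not tested. Beside the values given with the results, the block changed no other call over time.

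Counts over all genes moved more. Whole libraries gave 153 calls, but 3088 with the block, 1155 with DESeq2, 1199 with no filter, 514 with the dissected pool added and 100 to 399 without 1 library. PSM cells gave 52, but 828, 169, 528, 184 and 23 to 545 under the same settings, and NMP cells 1, but 1122, 446, 1010, 22 and 0 to 292. The interaction gave 231, and 0 without its block (379 at an unadjusted p under 0.05). The fate contrasts, in the order above, gave 233, 2220, 2147 and 4180 calls, but 7, 709, 643 and 744 without the pool block; spinal cord A gave 489 with DESeq2 and 81 to 430 without 1 pool, late PSM 1421 and determination front 1384 without whole replicate 1, and somite A 2387 without the dissected pool. Total-UMI scaling in place of TMM shifted the median log2 change of all genes by 0.11 in PSM cells. Higher and lower calls were 105 and 48 in whole libraries, 97 and 25 with that scaling and 621 and 534 with DESeq2; 36 and 16 against 46 and 11 in PSM cells; and 57 and 176 against 13 and 319, and 383 and 106 with DESeq2, for spinal cord A.

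Endoderm could not be fitted against other fates, since only the posterior part held at least 20 endoderm cells. Depth limits Shh, Hhip and Gli1, and the anterior and posterior parts have 1 library each. A log2 change of Shh over time was not tested.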

Other observations

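The few endoderm cells outside the posterior part lie below the minimum of 20 cells and entered no comparison. At 120 h, the 7 of whole replicate 2 held 6 Ptch1 UMIs (74.1 CPM), the single cell of whole replicate 1 held 9 (288 CPM) and the single cell of the anterior part held 3 (100.2 CPM). At 96 h, the 11 cells of replicate 2 held 3 Ptch1 UMIs (31.5 CPM) and the 2 cells of replicate 1 none. None of these 22 cells held a Shh UMI.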
